A study of Mus musculus with 45 samples.

Results

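The Klra genes, also called Ly49, encode C-type lectin-like receptors that mouse natural killer cells use to sense class I major histocompatibility molecules. Some family members inhibit the cell and others activate it. The genes arose by repeated duplication and lie side by side in the natural killer gene complex on chromosome 6, and inbred mouse strains are known to carry different numbers and combinations of them. DNA copy number at this cluster was measured in mammary tumors of 8 genetically engineered mouse models by array comparative genomic hybridization, in which tumor and reference DNA are labeled with different dyes and compete for the same probes. All probes whose gene name begins with Klra were taken, which gave 9 of the 40666 autosomal probes measured. They carry 3 names, with 2 probes for Klra17, 5 for Klra22 and 2 for Klra2. Klra22 was chosen because its ratio was high in the tumors of the BRCA1 model, so the values of that model at the cluster are given as a description with no test.

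The 45 tumors were grouped by the model in their labels, and a tumor number below is only a name within its model. The BRCA1fl/fl;p53+/-;MMTV-cre group (5 tumors, called BRCA1 tumors) carried floxed BRCA1 alleles, was heterozygous for p53 and had a cre transgene driven by the mouse mammary tumor virus promoter, which acts in mammary epithelium. The p53fl/fl;MMTV-cre transplant group (6 tumors, called p53 transplants) carried floxed p53 with the same cre and was grown as transplants. MMTV-c-Myc (5 tumors), MMTV-Her2/neu (5), MMTV-H-Ras (5), MMTV-PyMT (9) and MMTV-Wnt1 (5) express an oncogene from the same viral promoter, and C3(1)/SV40 T/t-antigens (5) expresses the viral antigens from the C3(1) promoter. The labels name invasive mammary tumors of female mice and give neither strain nor age. The reference is pooled spleen DNA in the labels, although their tissue field for that channel says normal mammary, and the study describes it as spleen DNA of the background strain. No normal DNA of the tumor-bearing animals was analysed here, so a difference inherited at the cluster and one that arose in the tumor cannot be told apart.

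The labels assign Cy5 to the tumors and Cy3 to the reference, but the log2 ratios below are Cy3 over Cy5, read as tumor over reference. This direction was chosen after values were seen, because the tumor intervals deposited by the authors run that way. All 17 of their short intervals at the cluster had the sign of the Cy3 over Cy5 ratio. With the dyes as labelled, every sign below turns. Each array was centred on its autosomal median. The "local difference" of a probe is its centred log2 ratio minus the median of the neighbouring probes within 2 Mb that carry another gene stem, so that gain or loss of the whole chromosome arm is removed. A local difference of 1 is a tumor to reference ratio of 2 times that of the neighbourhood.

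Within the arrays, the median green and red signals were 3.67 to 16.7 and 2.09 to 14.4 times background, and adjacent probes differed with a robust standard deviation of 0.158 to 0.476 in log2 ratio. Precision is limited by how many arrays a model has. The labels do not say that tumors came from separate mice, so p-values measure the spread between these samples. For each probe this spread was pooled over all 8 models. A standard error or p-value below can therefore be smaller than the tumors of that model alone would give. The arrays lay on 18 slides scanned on 10 days. Copy number in 2 Mb bins correlated at 0.97 between C3(1)/SV40 T/t-antigens tumor 3 and MMTV-Her2/neu tumor 2 and at 0.942 between C3(1)/SV40 T/t-antigens tumor 4 and MMTV-Her2/neu tumor 3, against at most 0.842 for any other pair from different models. The probe in Wnt1, the transgene of its model, had a local difference of 1.15 to 1.47 in MMTV-Wnt1 tumors 2 to 5 and -0.07 in the array labelled tumor 1. Counts were therefore also taken without these 5 arrays.

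In mm8 coordinates, as the array files give them, the Klra probes span chr6:129799386-131211931. The Klra17 probes lie at chr6:129799386-129799445 and chr6:129831392-129831451. The Klra22 probes, numbered 1 to 5 from low to high coordinate, lie at chr6:130036380-130036438, chr6:130162373-130162432, chr6:130254711-130254770, chr6:130276882-130276941 and chr6:130344248-130344307. The Klra2 probes lie at chr6:131193953-131194012 and chr6:131211872-131211931. The files do not say whether a probe lies in an exon or an intron. The Klra22 probes carry 2 to 4 transcript accessions each, which makes Klra22 a name for a 307.9 kb stretch of related genes rather than for 1 gene. Of the 7 accessions on the Klra probes, 3 were found in the RefSeq gene table (GRCm38.p6). They are those of Klra17, Klra2 and, on Klra22 probe 5, Klra1, an inhibitory receptor also known as Ly49a, for which Klra22 is listed as a synonym.

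The probe sequences were not used here. How alike genes of this family can be is shown by the stretch of 250 bases before the start of Klra4, Klra8 and Klra7. Klra4 and Klra8 encode the activating receptors Ly49D and Ly49H. Klra7 encodes the inhibitory receptor Ly49G and is named in the authors' intervals. The sequences are from RefSeq (GRCm38.p6, minus strand), 5′ to 3′, from chr6:130067272-130067521 for Klra4, chr6:130129899-130130148 for Klra8 and chr6:130233323-130233572 for Klra7. Capitals mark bases that do not match Klra4 in a pairwise global alignment.
Klra4: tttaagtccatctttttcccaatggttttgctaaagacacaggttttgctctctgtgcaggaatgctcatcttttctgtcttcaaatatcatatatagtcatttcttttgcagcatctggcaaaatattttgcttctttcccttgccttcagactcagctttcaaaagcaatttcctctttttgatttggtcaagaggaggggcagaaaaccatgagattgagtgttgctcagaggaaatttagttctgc
Klra8: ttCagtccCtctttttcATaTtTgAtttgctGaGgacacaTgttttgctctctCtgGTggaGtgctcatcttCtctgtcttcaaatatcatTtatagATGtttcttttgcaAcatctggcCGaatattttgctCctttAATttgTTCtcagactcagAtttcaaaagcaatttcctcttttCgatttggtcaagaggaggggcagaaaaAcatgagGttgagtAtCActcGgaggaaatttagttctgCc
Klra7: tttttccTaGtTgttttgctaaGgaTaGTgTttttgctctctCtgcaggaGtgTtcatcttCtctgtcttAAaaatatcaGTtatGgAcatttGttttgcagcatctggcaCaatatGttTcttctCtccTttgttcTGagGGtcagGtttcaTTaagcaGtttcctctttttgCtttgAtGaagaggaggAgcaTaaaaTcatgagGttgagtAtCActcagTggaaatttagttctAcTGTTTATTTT
Klra8 was 84.5% and Klra7 74.2% identical to Klra4 over this alignment, gaps counted. Among the 9 promoters of the family other than those of Klra2 and Klra17, pairwise identity had a median of 50.2% and ran from 38.7% to 84.5%. Klra4 and Klra8 were thus the most alike pair. Identity to other members ran from 44.1% to 75.2% for Klra2 and from 44.2% to 79.4% for Klra17. Whether 1 probe binds DNA of several Klra genes was not tested.

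Across the 7 models other than BRCA1, 4 of the 9 Klra probes differed among models by limma's F test with Benjamini-Hochberg adjustment over all probes, against 8.61% of the 40613 probes tested. These were Klra22 probe 1 (adjusted p = 0.00294), probe 3 (adjusted p = 0.000567), probe 4 (adjusted p = 0.0367) and Klra2 probe 2 (adjusted p = 0.0456). Both Klra17 probes, Klra22 probes 2 and 5 and Klra2 probe 1 did not pass, with adjusted p from 0.123 to 0.863. Klra22 probe 3 passed under all 58 alternative settings, while probe 4 passed under 46 and Klra2 probe 2 under 33. Of these settings 45 left out 1 tumor each, and the setting with the dyes as labelled cannot change a p-value of these tests. With the slide and with the scan date as a random block, probe 4 (adjusted p = 0.422 and 0.5) and Klra2 probe 2 (adjusted p = 0.409 and 0.138) did not pass. Klra22 probe 1 lost its call with the slide as a random block (adjusted p = 0.197) and with another background correction (adjusted p = 0.315).

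**Figure D1:**
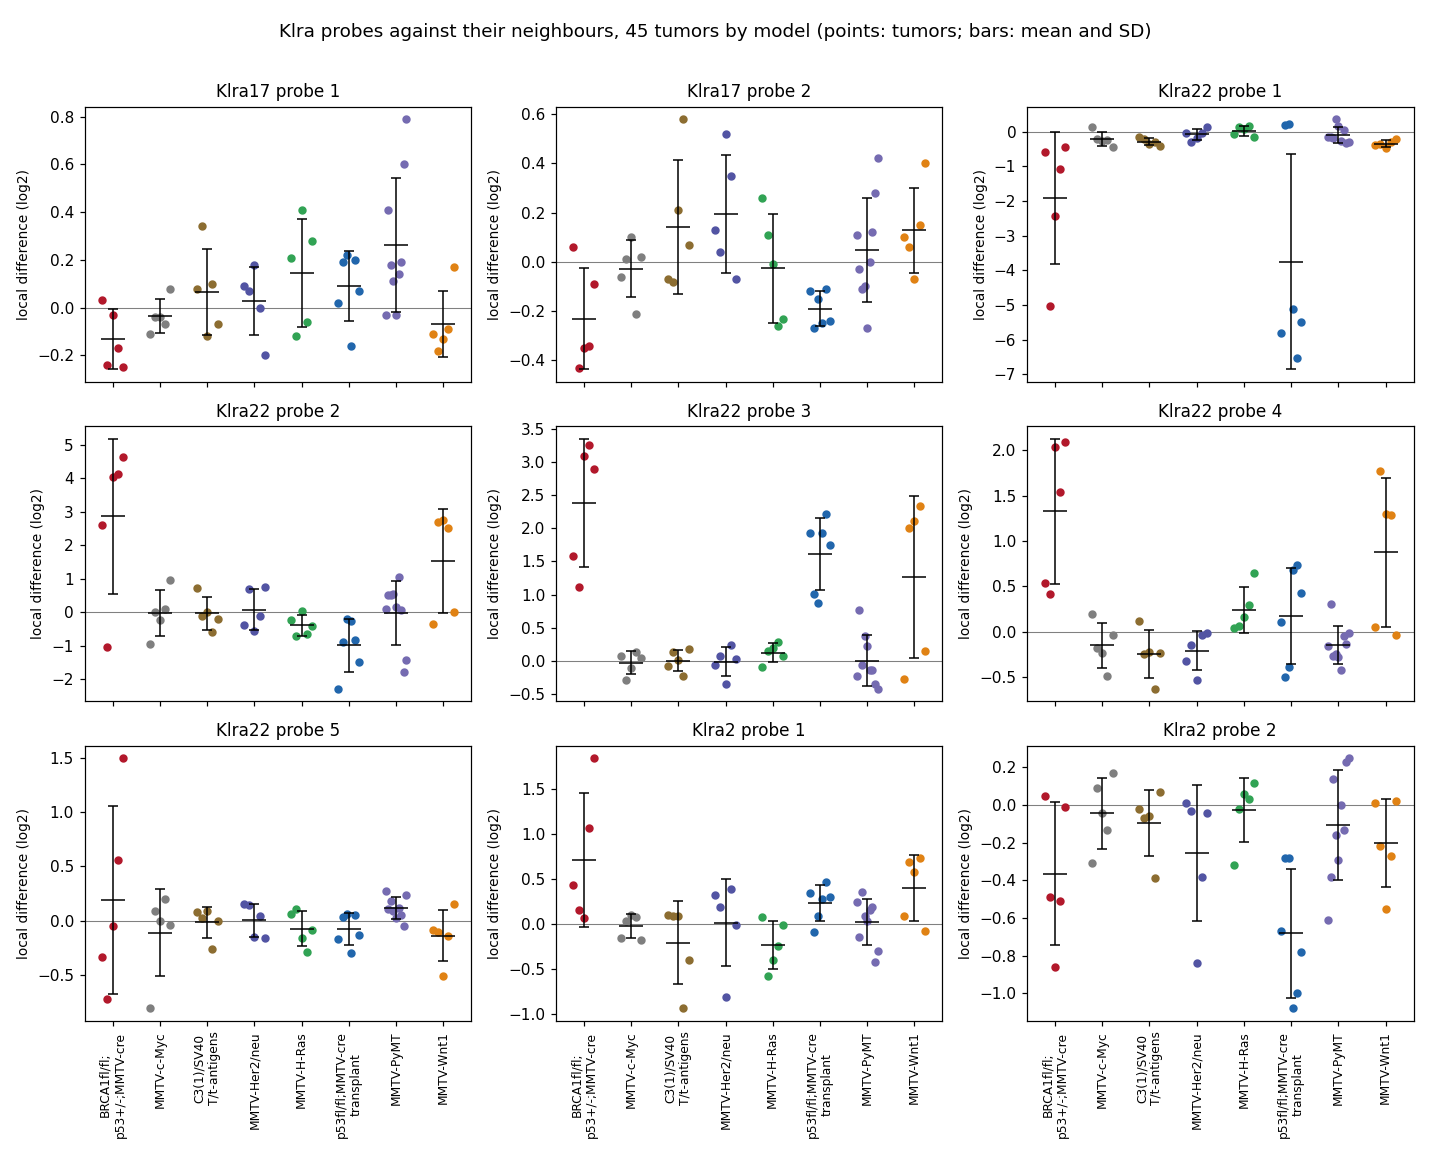
Local difference (log2, Cy3 over Cy5, probe minus neighbouring probes) of each Klra probe, 1 panel a probe, with 1 point for each of the 45 tumors and the mean and SD of each model as bars. The vertical scales differ between panels. Values reach -6.53 at Klra22 probe 1, in a p53 transplant, and 4.63 at Klra22 probe 2, in a BRCA1 tumor, and all 6 p53 transplants lie between 0.88 and 2.21 at Klra22 probe 3, whereas the Klra17 panels stay between -0.43 and 0.79.

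In the p53 transplants, Klra22 probe 1 was far below its neighbours and probe 3 was above them. The local difference of probe 1 had a lowest value of -6.53, a median of -5.31 and a highest value of 0.22. Tumors 1, 4, 5 and 6 stood at -5.80, -5.13, -6.53 and -5.48, apart from tumors 2 and 3 at 0.20 and 0.22. The lowest 4 values did not overlap with any tumor of the other 6 tested models, whose values ran from -0.48 to 0.36. The model mean was -3.76 with a standard error of 0.51 (n = 6, limma adjusted p = 6.35e-07), and 21 of the 40613 probes had a lower mean in this model. The SD among these 6 tumors was 3.1, against 0.1 to 0.24 in the other tested models. The standard error rests on the pooled spread and does not reflect the wide spread of the p53 transplants.

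At probe 3, the same model had a local difference of 0.88 at the lowest, 1.83 at the median and 2.21 at the highest. All 6 tumors were above 0, and tumors 2 and 3, which did not fall at probe 1, had the lowest values here, 1.01 and 0.88. The mean was 1.62 with a standard error of 0.23 (limma adjusted p = 1.57e-06). The values of the MMTV-c-Myc, C3(1)/SV40 T/t-antigens, MMTV-Her2/neu, MMTV-H-Ras and MMTV-PyMT tumors, -0.42 to 0.76, did not overlap with them. The 0.76, of MMTV-PyMT tumor 2, is a ratio to a Cy5 signal near background.

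Klra2 probe 2, at the far end of the cluster, was the third member that passed in the p53 transplants. Klra2 encodes Ly49B, a distant relative of the other family members. Its local differences ran from -1.08 over a median of -0.73 to -0.28, with a mean of -0.68 and a standard error of 0.11 (limma adjusted p = 2.07e-05). This range overlapped with that of each of the other 6 tested models, whose lowest values lay between -0.84 in MMTV-Her2/neu and -0.31 in MMTV-c-Myc. Tumors 2 and 3, both at -0.28, were again the closest to 0.

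These 3 members, 1 higher and 2 lower, are 3 of 9, against 36.2% of all probes that passed in the p53 transplants (19.9% higher, 16.4% lower). The count is therefore near the background of this model. At probe 1 the difference was large among all probes, as 0.14% of all probes had a mean at least as far from 0. All 3 calls held under every one of the 58 alternative settings, 45 of which left out a single tumor, with adjusted p of at most 0.0222. The sizes depended on the background correction, and with normexp the mean was -0.83 at probe 1 and 0.63 at probe 3. On both scan days that held p53 transplants, other models were scanned too. On the first of them, probe 1 averaged -3.70 ± 3.37 (SD, n = 3) in the transplants and -0.13 ± 0.21 (n = 13) in the other tumors, and on the second, -3.81 ± 3.56 (n = 3) and -0.01 ± 0.26 (n = 3). Probe 3 averaged 1.56 ± 0.48 against -0.03 ± 0.19 on the first day and 1.67 ± 0.69 against 0.13 ± 0.09 on the second. Both slides of this model held tumors with and without the fall at probe 1, and the arrays of tumors 2 and 3 had the largest probe-to-probe standard deviations of the series but for PyMT tumor 8, 0.448 and 0.476 against 0.197 to 0.268 in the other p53 transplants. The part of array noise in that split was not tested.

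In the MMTV-Wnt1 tumors, 3 of the 9 Klra probes were above their neighbours and none was below, against 3.02% and 3.52% of all probes (6.54% in either direction). They are the adjacent Klra22 probes 2, 3 and 4. Probe 2 had local differences of -0.36, 2.69, 2.75, 2.51 and 0.02 in tumors 1 to 5. Probe 3 had -0.27, 2.0, 2.11, 2.33 and 0.15, and probe 4 had 0.05, 1.77, 1.30, 1.29 and -0.04. At probe 3 the Cy5 spots of tumors 3 and 4 were not well above background, so that 2.11 and 2.33 are ratios to a signal near background, and at probe 2 the same held for the Cy3 spot of tumor 1. At each of these probes tumors 2, 3 and 4 were high and close together, while tumors 1 and 5 lay within the range of the 29 tumors of the MMTV-c-Myc, C3(1)/SV40 T/t-antigens, MMTV-Her2/neu, MMTV-H-Ras and MMTV-PyMT models.

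The model means in MMTV-Wnt1 were 1.52 with a standard error of 0.47 at probe 2 (limma adjusted p = 0.0431), 1.27 with 0.25 at probe 3 (adjusted p = 0.00199) and 0.87 with 0.20 at probe 4 (adjusted p = 0.00635). The SDs among the MMTV-Wnt1 tumors were 1.55, 1.22 and 0.82, the largest of the tested models, while the standard errors rest on the pooled spread. Among the 40613 probes, 18, 32 and 63 had a higher mean in this model. Tumors 2, 3 and 4 were the only arrays of 1 slide and 1 scan day, so that this slide and these tumors cannot be told apart. The files also give another dye normalization setting for tumors 2 to 5 and for MMTV-PyMT tumors 8 and 9 than for all other arrays, and its part in the values was not tested. With the scan date as a random block the means were 1.34, 0.99 and 0.63 and none of the 3 probes passed (adjusted p = 0.274, 0.093 and 0.219), and with the slide as a random block only probe 3 did. Without tumor 2, 3 or 4 in turn, only probe 3 passed. With dim spots left out, in contrast, the mean of probe 3 was 0.63 and did not pass (adjusted p = 0.185), while probe 4 did (adjusted p = 0.00607). With normexp probe 3 had 0.35 (adjusted p = 0.194), probe 2 had 0.64 (adjusted p = 0.0941) and probe 4 had 0.65, which passed (adjusted p = 0.0213). Klra2 probe 1 had local differences of 0.68, 0.57 and 0.73 in tumors 2 to 4 and of 0.08 and -0.08 in tumors 1 and 5, and its mean of 0.40 did not pass (limma adjusted p = 0.151).

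The BRCA1 tumors, for which the gene was chosen, had the highest values at the same 3 Klra22 probes. Probe 2 had local differences of 2.60, -1.04, 4.03, 4.13 and 4.63 in tumors 1 to 5, with a mean of 2.87 ± 2.31 (SD, n = 5). The Cy5 spot of tumor 3 was not well above background at this probe, so its 4.03 is a ratio to a signal near background. Tumor 2 was the exception and lay below 0. Probe 3 was above its neighbours in all 5 tumors, at 1.58, 1.12, 3.08, 3.25 and 2.89, and averaged 2.39 ± 0.96.

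At probe 4 the BRCA1 tumors had 0.54, 0.42, 2.04, 1.54 and 2.09. Tumors 3, 4 and 5 were higher than tumors 1 and 2 at probes 2, 3 and 4 alike. These 3 tumors shared a slide that held no other model, and slide and tumor cannot be told apart. At probe 1 the values were -0.59, -5.02, -2.43, -1.09 and -0.44, so that tumor 2 was near the low p53 transplants and tumor 3 lay between them and the rest.

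Beyond these probes, Klra22 probe 5 had -0.34, -0.72, -0.05, 0.56 and 1.5 in the BRCA1 tumors, and Klra2 probe 1 had 0.43, 0.15, 0.06, 1.06 and 1.84. Tumor 5 was the highest at both, and tumor 4 the next.

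**Figure D2:**
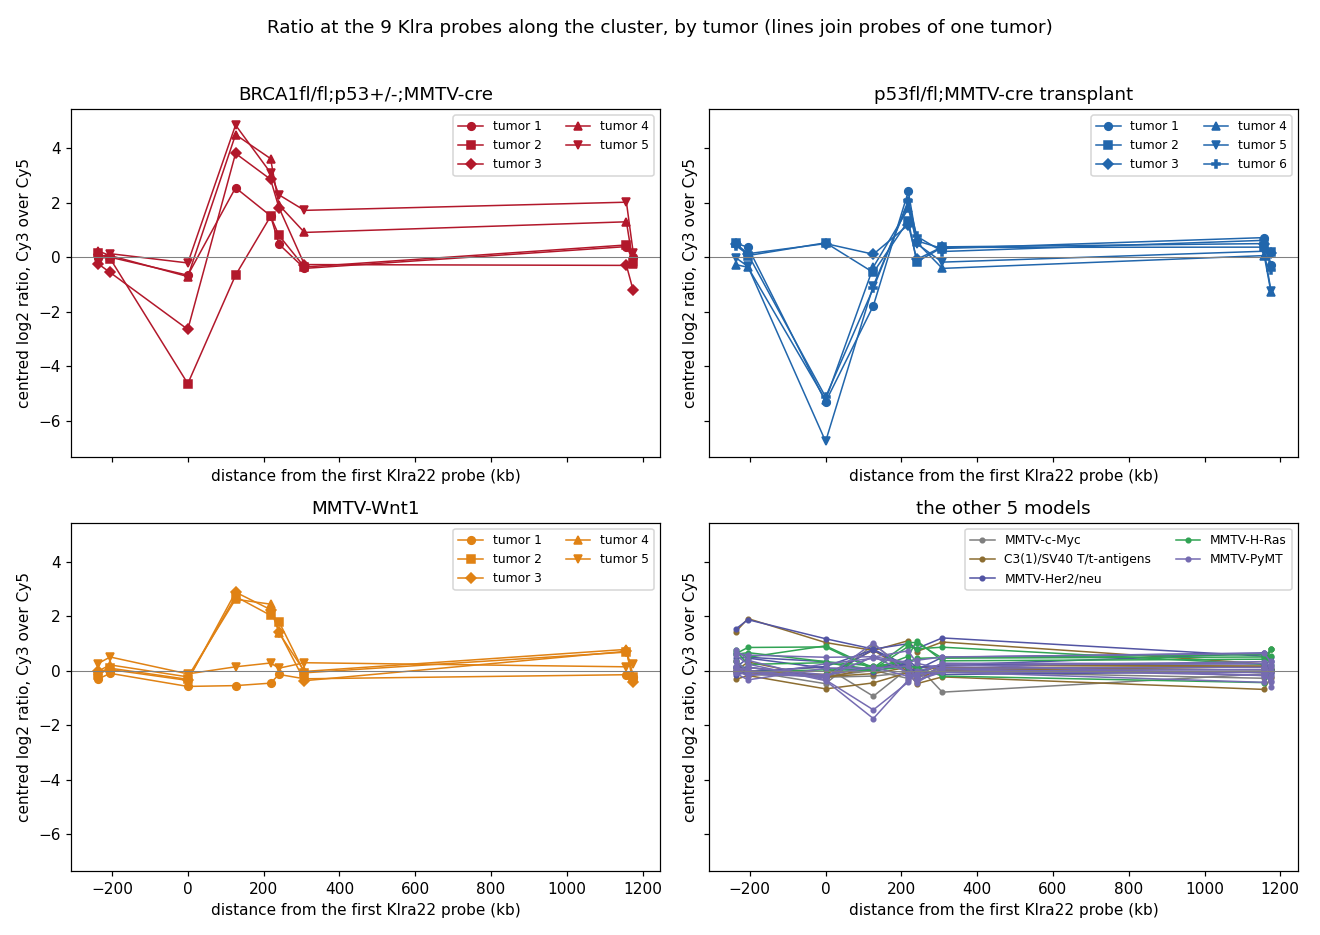
Centred log2 ratio (Cy3 over Cy5) at the 9 Klra probes against their distance in kb from the first Klra22 probe, with 1 line for each tumor and 1 panel each for the BRCA1, p53 transplant and MMTV-Wnt1 tumors and for the other 5 models together. The high stretch covers Klra22 probes 2 to 4 in BRCA1 tumors 3, 4 and 5 and MMTV-Wnt1 tumors 2, 3 and 4 and probes 2 and 3 in BRCA1 tumor 1, whereas p53 transplants 1, 4, 5 and 6 and BRCA1 tumor 2 have a low point at probe 1 and a high point at probe 3.

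The other 5 models stayed close to their neighbours at most Klra probes. None of the 9 probes passed in MMTV-c-Myc, C3(1)/SV40 T/t-antigens, MMTV-Her2/neu or MMTV-H-Ras, where 1.94%, 0.209%, 2.8% and 0.81% of all probes did. Of all probes, 0.948% were higher and 0.992% lower in MMTV-c-Myc, 0.0616% and 0.148% in C3(1)/SV40 T/t-antigens, 1.08% and 1.73% in MMTV-Her2/neu and 0.261% and 0.549% in MMTV-H-Ras. In the 29 tumors of these models and MMTV-PyMT, local differences ran from -0.46 to 0.36 at Klra22 probe 1, from -0.42 to 0.76 at probe 3, from -0.63 to 0.65 at probe 4 and from -0.81 to 0.27 at probe 5. Klra22 probe 2 was the most variable, at -1.77 to 1.04. Its lowest values were those of MMTV-PyMT tumors 8 and 9, -1.77 and -1.42, which shared a slide.

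In MMTV-PyMT 1 of the 9 probes passed, Klra17 probe 1, against 18.7% of all probes (9.88% higher, 8.77% lower). Klra17 encodes Ly49Q and lies at the near end of the cluster. Its local difference was -0.03 at the lowest, 0.18 at the median and 0.79 at the highest of 9 tumors, with a mean of 0.26 and a standard error of 0.06 (limma adjusted p = 0.00354). The highest values, 0.60 and 0.79, were again those of tumors 8 and 9. Without the 3 arrays of their slide the mean was 0.14 and did not pass (limma adjusted p = 0.0949). The call was also lost with the scan date as a random block (mean 0.23, limma adjusted p = 0.101) and with normexp (mean 0.11, adjusted p = 0.271). It was kept with the slide as a random block (mean 0.23, adjusted p = 0.021).

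Some tumors carried gains of the chromosome around the cluster. The median of the 126 probes that flank the cluster within 2 Mb, as a centred log2 ratio, was 1.31 in C3(1)/SV40 T/t-antigens tumor 4 and 1.35 in MMTV-Her2/neu tumor 3, the pair of arrays noted above. The Klra17 mean of these was 1.68 and 1.71, above the flank, and the Klra22 mean 0.93 and 1.00, below it. Klra2 probe 1 had local differences of -0.94 and -0.81 there. In the authors' intervals both tumors step down inside the cluster. The first had 1.45 over chr6:126498437-149512423 but 0.52 from chr6:130276682 to 135275482. The second had 1.38 over the same stretch but 0.45 from chr6:130390788 to 135216732. The flank median thus covers probes on both sides of the step, whose part in these means was not tested. In the MMTV-H-Ras tumors the flank median was 0.43, 0.76, -0.03, 0.75 and 0.46, and 4 of the 5 were high. The mean of the 5 Klra22 probes in the same tumors was 0.36, 0.70, 0.03, 0.72 and 0.47, within 0.07 of the flank in each. In contrast, the flank was 0.02, 0.12 and 0.07 in MMTV-Wnt1 tumors 2, 3 and 4, where the Klra22 mean was 1.24, 1.17 and 1.25. The Klra22 mean of these 3 tumors thus lay over 1 above the chromosome around it. In tumors 3 and 4 this mean includes probe 3, whose Cy5 spots were not well above background, so its size is uncertain.

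**Figure D3:**
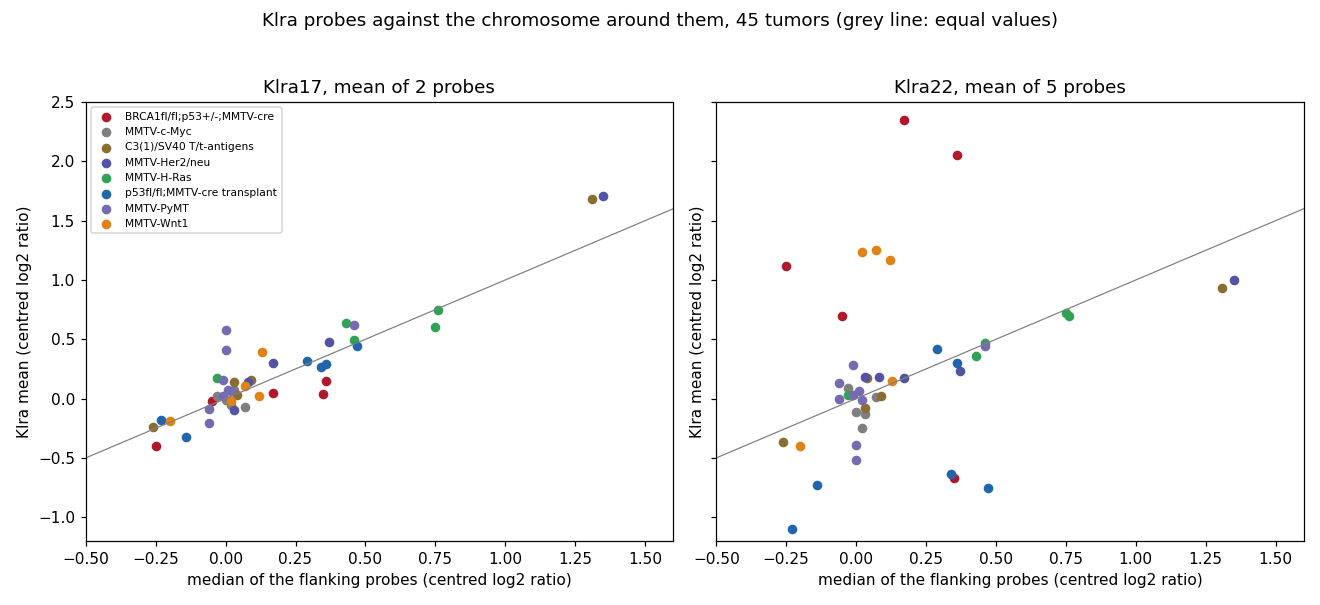
Mean centred log2 ratio of the 2 Klra17 probes (left) and the 5 Klra22 probes (right) against the median of the 126 flanking probes, with 1 point for each of the 45 tumors coloured by model and a grey line at equal values. Klra17 stays within 0.58 of the line, up to a flank of 1.35, while Klra22 lies above it in BRCA1 tumors 1, 3, 4 and 5 and MMTV-Wnt1 tumors 2 to 4, and below it in BRCA1 tumor 2, p53 transplants 1, 4, 5 and 6, MMTV-PyMT tumors 8 and 9 and the 2 tumors with the highest flank.

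The signals of the separate channels were set side by side to see which of them moved. Each is a log2 processed signal minus the flank median of the same channel and array, and is compared only for the same probe across arrays. At Klra22 probe 1 the Cy5 level ran from 0.76 to 1.31 over all 45 arrays, with an SD of 0.14. The Cy3 level ran from -5.55 to 1.16, with an SD of 1.75. In p53 transplants 1, 4, 5 and 6 it was -4.79, -4.10, -5.55 and -4.55, and in BRCA1 tumors 2 and 3 -3.93 and -1.25. All other arrays were at 0.09 or above. Every array was well above background at this probe in both channels.

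At Klra22 probe 2 the Cy5 level was low on most arrays, from -5.77 to -1.92 on the 42 arrays outside slide 18, and the probe was not well above background on 8 arrays in Cy5 and 7 in Cy3. MMTV-Wnt1 tumors 2 to 4 had Cy3 levels of -0.34, -0.26 and -0.43. Their Cy5 levels of -3.14, -3.11 and -3.06 were within the range of other arrays. Slide 18 held MMTV-PyMT tumors 8 and 9 and MMTV-Wnt1 tumor 5, and its Cy5 levels at probe 2 were -0.62, -0.80 and -0.55, above those of every other array.

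The Cy3 level of MMTV-Wnt1 tumor 5 at probe 2 was -0.49, near that of tumors 2 to 4, while its local difference of 0.02 was near 0. Its Cy3 level at probe 3 was -0.29, above the -0.85, -1.28 and -0.96 of tumors 2 to 4. Its Cy3 level at probe 4 was -0.71, below their 0.81, 0.61 and 0.41. At probe 3 the Cy5 levels of slide 18, -0.62 to -0.49, were likewise the highest of the series. The Cy5 channel, read here as the reference, was thus higher at these probes on these 3 arrays than on the other 42. Those 42 were not uniform, as their Cy5 levels at probe 3 ran from -3.48 to -0.72. The part of the Cy5 channel in the ratio of MMTV-Wnt1 tumor 5 was not tested. Without slide 18 the count of Klra probes called in MMTV-Wnt1 was 3, as before.

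At Klra22 probe 3 the p53 transplants had Cy3 levels of 0.56, -0.70, -0.85, 0.40, 0.69 and 0.40, all above the -3.22 to -0.93 of the tumors of the 5 models without a Klra22 call. Their Cy5 levels, -1.72 to -1.34, lay within those of the other arrays. In MMTV-Wnt1 tumors 2 to 4 the Cy5 level was low at probe 3, at -2.96, -3.48 and -3.41, and the probe was not well above background in Cy5 on 2 arrays of this model. Their Cy3 levels there, -0.85, -1.28 and -0.96, lay in the upper part of the -3.22 to -0.93 of those 5 models or just above it, and below the 0.40 to 0.69 of p53 transplants 1, 4, 5 and 6. In BRCA1 tumors 3 to 5 the Cy5 levels of -3.08, -3.23 and -2.91 were low as well, with Cy3 levels of 0.06, -0.11 and -0.20. MMTV-H-Ras tumors 3 to 5 had Cy5 levels of -2.81 to -3.27 with Cy3 levels as low, -2.62 to -3.22.

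At Klra22 probe 5, MMTV-c-Myc tumors 1 and 3 had low levels in both channels, -3.78 and -5.39 in Cy3 and -3.01 and -5.78 in Cy5, and their local differences were -0.81 and 0.00. Neither channel of tumor 3 was well above background there, so its 0.00 is a ratio of signals near background.

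**Figure D4:**
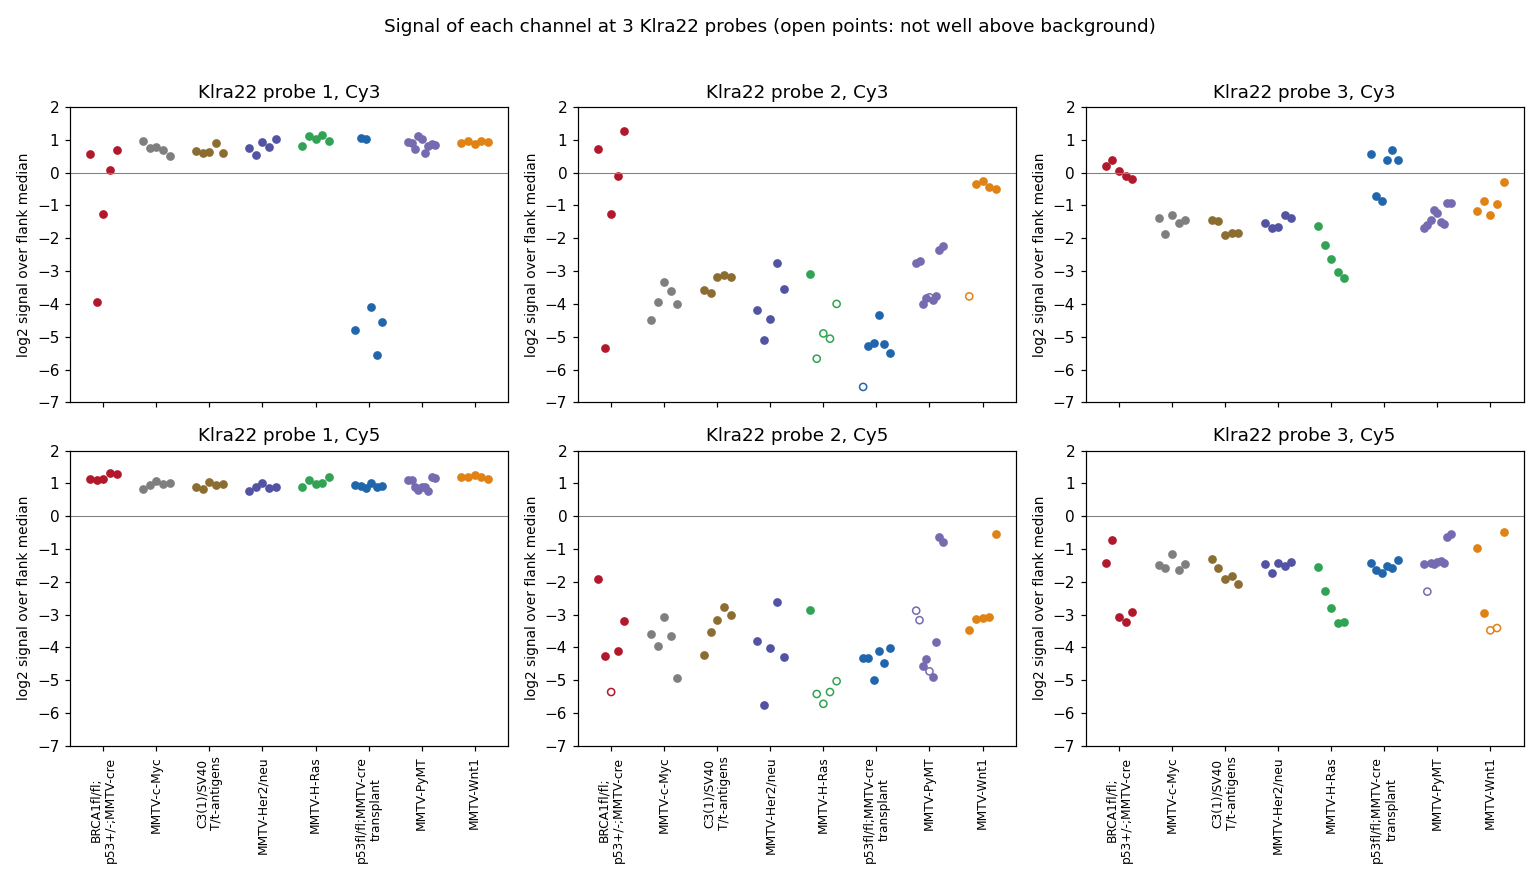
Log2 processed signal over the flank median of the same channel, for Cy3 (top row) and Cy5 (bottom row) at Klra22 probes 1, 2 and 3, with 1 point for each tumor by model and open points where the spot was not well above background. At probe 1 the Cy5 points stay between 0.76 and 1.31 while the Cy3 points of 4 p53 transplants lie at -4.10 or below, and at probe 2 the Cy5 points of the 3 arrays of slide 18 are the highest.

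The tumor intervals that the authors deposited hold 17 short ones at the cluster, in 12 tumors of 3 models. They fell in all 5 BRCA1 tumors, in p53 transplants 1, 4, 5 and 6 and in MMTV-Wnt1 tumors 2, 3 and 4. A single-probe interval at chr6:130036180-130036580, which holds Klra22 probe 1, was a loss in 6 tumors, with deposited mean log2 ratios from -6.81 to -2.37. The interval chr6:130162173-130277082, which holds Klra22 probes 2 to 4, was a gain in BRCA1 tumor 3 and in MMTV-Wnt1 tumors 2, 3 and 4, from 1.99 to 2.78. Its bounds were the same in all 4. BRCA1 tumors 1 and 4 had a gain of probes 2 and 3 only, at 1.89 and 3.94, and BRCA1 tumor 5 one of probes 2 to 5 at 2.78. The remaining 4 were gains that began at probe 3 in the p53 transplants, of this probe alone in tumors 1, 5 and 6, from 1.93 to 2.70, and of probes 3 and 4 in tumor 4, at 1.04. Another 25 intervals of the authors at the cluster were longer, 3446.9 kb at the shortest, and fell in 19 tumors. Some of them began just before or inside the cluster, as in the 2 tumors with the highest flank. Those from chr6:129645273 had 0.41, -0.52 and 0.29 in p53 transplants 1, 4 and 6. In BRCA1 tumor 3 a loss of -0.57 began at chr6:130390788. Neighbours within 2 Mb lie on both sides of these starts. All these intervals are calls on the same arrays and no independent measurement.

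The Klra22 probes did not move as a unit. Over the 45 tumors, Pearson's r of the local differences was 0.84 between probes 3 and 4, 0.72 between probes 2 and 4 and 0.61 between probes 2 and 3. It was -0.52 between probes 1 and 3. Klra22 probe 1 and Klra2 probe 2, which are over 1 Mb apart, had an r of 0.67. These values describe probes of the same arrays and have no test.

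Other genes of the natural killer gene complex and beside it were described by fixed lists, matched by gene name on chromosome 6. The NKG2 and CD94 family, which are further lectin-like receptors of natural killer cells, had 23 probes under 4 names. In the p53 transplants 5 were higher and 2 lower, with a list median of 0.06 against 0.00 over all probes. That is 30.4% of the list against 36.2% of all probes. In MMTV-PyMT 4 were higher and 2 lower, or 26.1% against 18.7%, and in the other tested models none passed but 1 higher probe each in MMTV-Her2/neu and MMTV-Wnt1, or 4.3% against 2.8% and 6.54% of all probes in either direction. The genes with a passing probe were Klrk1, Klrc1, Klrc3 and Klri2, and no mean of the list lay beyond 0.79, the value of a Klrk1 probe in the p53 transplants. Many probes named Klrk1 carry accessions of other genes of the complex.

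The Nkrp1 and Clr genes, which encode a receptor family and its lectin-like ligands, were listed together with Klrg1 and Cd69, which belong to neither. This list had 21 probes under 10 names, of which 6 were higher and none lower in the p53 transplants, or 28.6% against 36.2% of all probes. The largest difference was at 1 probe of Clec2e, with a mean of 2.63 and a standard error of 0.49 (limma adjusted p = 8.34e-05), while another Clec2e probe had 0.43. Klrb1f at 1.03, Clec2d at 0.62, Cd69 at 0.53 and Clec2h at 0.17 also passed there. In MMTV-PyMT the passing probes were those of Klrb1a at 0.45, Clec2e at 0.35 and Clec2i at 0.32, or 14.3% of the list against 18.7% of all probes. Klrb1f was lower in MMTV-c-Myc at -0.38 and Klrg1 lower in MMTV-Wnt1 at -0.33, each 4.8% of the list against 1.94% and 6.54% of all probes. Clec12a, the gene with probes in the list of other lectin-like receptors, had 1 of its 2 probes higher in 4 models, at 0.37 in MMTV-c-Myc, 0.49 in MMTV-Her2/neu, 0.44 in the p53 transplants and 0.59 in MMTV-PyMT. Of all probes, 0.948%, 1.08%, 19.9% and 9.88% were higher in these models.

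The bitter taste receptor genes of chromosome 6, most of them beyond the far end of the cluster, also form a duplicated family, and they held the lowest mean of these lists. Of 25 probes, 4 were lower and none higher in the p53 transplants, and the list median was 0.01. That share, 16% lower, is near the 16.4% of all probes that were lower. Tas2r120 had a mean of -4.17 with a standard error of 0.49 (limma adjusted p = 3.15e-08), and Tas2r117, Tas2r115 and Tas2r131 had -2.21, -1.84 and -1.32. In MMTV-H-Ras, Tas2r105 at -1.01 and Tas2r104 at -0.65 were lower, which are neighbours. They are 8% of the list, against 0.549% of all probes that were lower in this model. In MMTV-PyMT Tas2r123 was higher at 0.57 and Tas2r139 lower at -0.16, which is also 8% of the list, against 18.7% of all probes.

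Among 22 probes of 10 other genes of this end of chromosome 6, 5 were higher and 1 lower in the p53 transplants, or 27.3% against 36.2% of all probes. A single probe of Etv6, a transcription factor gene, had a mean of 4.10 with a standard error of 0.36 (limma adjusted p = 4.45e-11) in the p53 transplants and of 1.33 with 0.39 in MMTV-Wnt1 (limma adjusted p = 0.0311). Bcl2l14 at 0.64, M6pr at 0.54, Lrp6 at 0.39 and Mansc1 at 0.36 were higher and Dusp16 at -0.26 lower in the p53 transplants. In MMTV-Wnt1 another probe of Etv6 at 0.69 and 1 of Lrp6 at 0.41 were higher and Mansc1 at -0.28 lower, or 18.2% of the list against 6.54% of all probes. In MMTV-PyMT Mansc1 at 0.35 was higher and Styk1 at -0.24 and Etv6 at -0.28 lower, or 13.6% against 18.7%. In MMTV-H-Ras Phc1 was lower at -0.42, or 4.5% against 0.81%. Differences beyond 1 at a single probe were thus also present on chromosome 6 outside the Klra probes.

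Probes elsewhere with a pattern like the mean of the 5 Klra22 probes were ranked by Pearson's r of the local difference over the 45 tumors, among 39030 autosomal probes over 2 Mb away that were measured on every array. The highest were a probe named for the transcript AK144050 on chromosome 1 (r = 0.746), AK129215 on chromosome 3 (0.677), Parvg on chromosome 15 (0.662), a probe without a gene name on chromosome 15 (0.654) and AK089666 on chromosome 12 (0.653). All 5 had their highest model mean in the BRCA1 tumors, from 0.35 to 3.76. Klra22 was chosen for its high ratio in these tumors, so ranking by likeness to it favored such probes. The lowest were a probe without a gene name on chromosome 6 (r = -0.717), Pfdn1 (-0.716) and Ptbp2 on chromosome 3 (-0.712). The points share arrays, models and slides, and the values are a description.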

How the data were processed

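Genomic DNA of 45 tumors was hybridized against spleen DNA to Agilent 44K arrays, 1 array a tumor. The authors deposited the output of Agilent Feature Extraction (version 9.5.1.1 in the file headers, 10.7 in the submitters' processing notes). Per the file headers, the deposited log10 ratio of red over green and the processed signal intensity of each channel were background-subtracted and dye-normalized by that software. The authors also deposited 1 table of intervals called gained or lost, with mean log2 ratios per tumor. The caller's settings are not given in the sources used here.

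Log10 ratios were multiplied by -log2(10), spots flagged as outliers were left out, spots of a probe were averaged and arrays were centred on the autosomal median. Coordinates are mm8. Local differences needed at least 5 neighbours, and probes measured on fewer than 36 arrays were left out. All 9 Klra probes passed this filter. Models were fitted together (limma 3.58.1, R 4.3.3) as means of 8 groups. The means of the 7 models other than BRCA1 were tested against 0, and these models among themselves by an F test, all two-sided, with Benjamini-Hochberg adjustment over 40613 probes at a threshold of 0.05. In data simulated for MMTV-Wnt1 over 40613 probes, 66 of 100 shifts of 0.5 and 99 of 100 shifts of 1 were recovered, with 9 false calls. The simulated noise was independent between arrays, with equal spread in all models, and all MMTV-Wnt1 arrays were shifted alike. The MMTV-Wnt1 calls above rest on tumors of a shared slide, so these rates do not carry over to them. Promoters were aligned with biopython 1.88 (global, match 2, mismatch -1, gap opening -3, gap extension -0.5).

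The members and gene lists were chosen with earlier results of these data known. Named were every Klra probe, the 5 probes most like and the 3 most unlike Klra22, and genes of the lists with a passing probe. Alternatives were other centring, background correction, loess, filters, neighbour distances, no local subtraction, dyes as labelled, slide or scan date as a random block, and leaving out arrays.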

Additional observations from a re-analysis of the deposited data

Results flagged for a closer look

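Tumors were compared within each of 72 groups of 1 probe and 1 model, and 3 groups had a tumor far from its nearest neighbour for the spread of the group. Chance alone gives about 1 in 20. They were Klra17 probe 1 in MMTV-Wnt1 tumor 5, whose local difference was 0.17, Klra22 probe 5 in MMTV-c-Myc tumor 1, at -0.81, and Klra22 probe 5 in C3(1)/SV40 T/t-antigens tumor 4, at -0.26. The first is an array of slide 18, the second an array whose signal at that probe was low in both channels, and the third has a gain of the flanking chromosome. The part of these in the values was not tested.

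Differences among the 7 models other than BRCA1 passed limma's F test at Klra22 probe 1 (adjusted p = 0.00294), Klra22 probe 3 (adjusted p = 0.000567), Klra22 probe 4 (adjusted p = 0.0367) and Klra2 probe 2 (adjusted p = 0.0456). The models that stood apart were the p53 transplants at probes 1 and 3 and at Klra2 probe 2, with means of -3.76, 1.62 and -0.68, and MMTV-Wnt1 at probes 3 and 4, with means of 1.27 and 0.87.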

How the results depend on the processing

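No paired analysis was possible because the labels give no replicate numbers that tumors of different models share. The slides, some of which hold several models, were fitted as a random block. Of the 9 Klra probes, 4 differed among the 7 tested models. The count was 2 with normexp background correction, 1 with the slide and 2 with the scan date as a random block, 2 without the 5 arrays of doubtful label, and 2 to 5 when single tumors were left out. The p53 transplants had 3 called probes, 5 with normexp and 5 without slide 18, an alternative chosen after the data were seen, and 3 to 4 without single tumors. MMTV-Wnt1 had 3, with 1 under normexp, 1 without dim spots, where Klra22 probe 2 was left out of the test, 1 with the slide and 0 with the scan date as a block, and 1 to 3 without single tumors. MMTV-PyMT had 1, with 0 under normexp, without local subtraction, with the scan date as a block and without slide 18. Without local subtraction MMTV-H-Ras had 2 and MMTV-Her2/neu 1 instead of 0. With the dyes as labelled the mean local difference of the Klra22 probes turned from 0.97 to -0.97 in BRCA1 tumors, from 0.63 to -0.63 in MMTV-Wnt1, from -0.61 to 0.61 in the p53 transplants, from -0.12 to 0.12 in C3(1)/SV40 T/t-antigens and from -0.10 to 0.10 in MMTV-c-Myc. Fewer arrays, fewer spots, a wider error term or, with a random block, moved model means are part of the construction of the block and leave-out settings. Which of these changed a count was not tested, and neither was the cause under the other settings. Klra22 probe 2 is dim, and its values are the least certain of the 9.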
